A study of Mus musculus with 24 samples.

Results

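Transcripts of the proteins that set the phosphorylation of the translation initiation factor eIF2 were followed in BMDM, mouse macrophages that M-CSF, a growth factor, brings out of bone marrow in culture. The set holds 10 of the 56884 genes in the count table and was chosen by role, with earlier results of these data known. It contains the eIF2α kinases HRI (*Eif2ak1*), PKR (*Eif2ak2*), PERK (*Eif2ak3*) and GCN2 (*Eif2ak4*), the regulatory subunits of the eIF2α phosphatase GADD34 (*Ppp1r15a*) and CReP (*Ppp1r15b*), eIF2α itself (*Eif2s1*), the catalytic subunit of eIF2B (*Eif2b5*), and *Dele1* and *Oma1*. All 10 passed the filter on low counts.

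Cells came from 4 wild-type C57BL/6J female mice of 9 weeks, numbered 1, 2, 4 and 5, each of which gave 1 library per condition, 24 in all. After 6 days in M-CSF, naive cells were compared with cells that received IL-4 and IL-13, each at 20 ng/ml, for 24 hours. Further groups received an inhibitor for 1 hour, and then the same cytokines together with the inhibitor for 24 hours. One inhibitor group received 5 µg/ml tunicamycin, another 10 µM Sal003, and 2 groups 1 µM oligomycin. ISRIB at 1 µM was present in 1 of the oligomycin groups, and the sample labels conflict on which: in oligomycin set A the titles name ISRIB and the library names do not, while oligomycin set B is labelled the other way round. The neutral names are kept throughout.

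The kinases phosphorylate eIF2α on serine 51, each in response to its own stress, and phosphorylated eIF2α blocks eIF2B, the exchange factor that reloads eIF2 with GTP. Most translation then falls while *Atf4* and related messengers are translated, which is the integrated stress response (ISR). Protein phosphatase 1 reverses the mark when it is guided to eIF2α by CReP, which is constitutive, or by GADD34, whose gene is an ISR target and closes a feedback loop. PERK senses unfolded protein in the endoplasmic reticulum (ER), which tunicamycin provokes by blocking N-glycosylation. HRI receives mitochondrial stress through the protease OMA1 and its substrate DELE1, and oligomycin, which blocks the ATP synthase, sets off such stress. PKR binds double-stranded RNA and is itself induced by interferon, and GCN2 senses uncharged tRNA. Sal003 slows the dephosphorylation of eIF2α, and ISRIB acts on eIF2B to counter the effect of the mark. Transcript levels measure none of these activities.

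The libraries held 16238727 to 26725278 reads assigned to genes. Levels are in CPM (read counts relative to the TMM-scaled library size), with the SD over 4 mice, and changes are log2 fold changes of edgeR's quasi-likelihood fit, with a standard error (SE) and a Benjamini-Hochberg adjusted p over the 13679 genes tested. Calls were made where this p was under 0.05. The naive library of mouse 2 stood apart, with a median absolute deviation from its group of 0.162 on the log2 scale against 0.037 to 0.088 in the others. The summed level of 6 macrophage markers, all of which passed the filter, ran from 8446 CPM in set A to 35760 CPM in naive cells. Of 2 markers each of T and B cells and 4 of erythroid cells none passed it, and each list summed to at most 1.009 CPM in any library. Neutrophil markers, of which 3 of 4 passed, summed to 20.77 to 41.39 CPM in naive cells, 11.11 to 21.8 with IL-4/IL-13, 0.05135 to 0.2547 with tunicamycin, 3.322 to 4.982 with Sal003, and, of the oligomycin groups, 1.399 to 2.793 for set A and 9.697 to 12.62 for set B. Dendritic cell markers summed to at most 6.373 CPM and fibroblast markers to at most 65.83 CPM, and both reached these values in cells without an inhibitor. The part of these cells in the results was not tested.

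*Ppp1r15a* changed most with tunicamycin and in both oligomycin groups, *Eif2ak2* changed most with IL-4/IL-13 and with Sal003, and the 10 genes did not move as a block. With IL-4/IL-13, 6 members rose and 2 fell, where 60.5% of all genes tested were called, 30.1% higher and 30.4% lower. Without mouse 2 the calls of *Eif2ak4* and *Dele1* were lost. Relative to IL-4/IL-13 alone, tunicamycin raised 5 and lowered 4 members, against 38.7% and 37.6% of all genes (76.3% called). Sal003 raised 5 and lowered 1, against 25.9% and 24.6% (50.6% called). In set A 5 rose and 3 fell, against 34% and 32.2% (66.2% called), and in set B 5 rose and 2 fell, against 27.9% and 26.4% (54.3% called). The share of members called exceeded the background by little, so these counts are no result about the set. All 4 inhibitor comparisons use the same IL-4/IL-13 libraries. When a change of at least 2.5-fold was also required, *Ppp1r15a* was the only member called, with tunicamycin (22.6% of all genes) and in set A (12.7%). No member reached it with IL-4/IL-13 (11.5% of all genes), Sal003 (7.71%) or in set B (7.96%), and between the oligomycin sets *Ppp1r15a* alone did (2.62%).

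**Figure D1:**
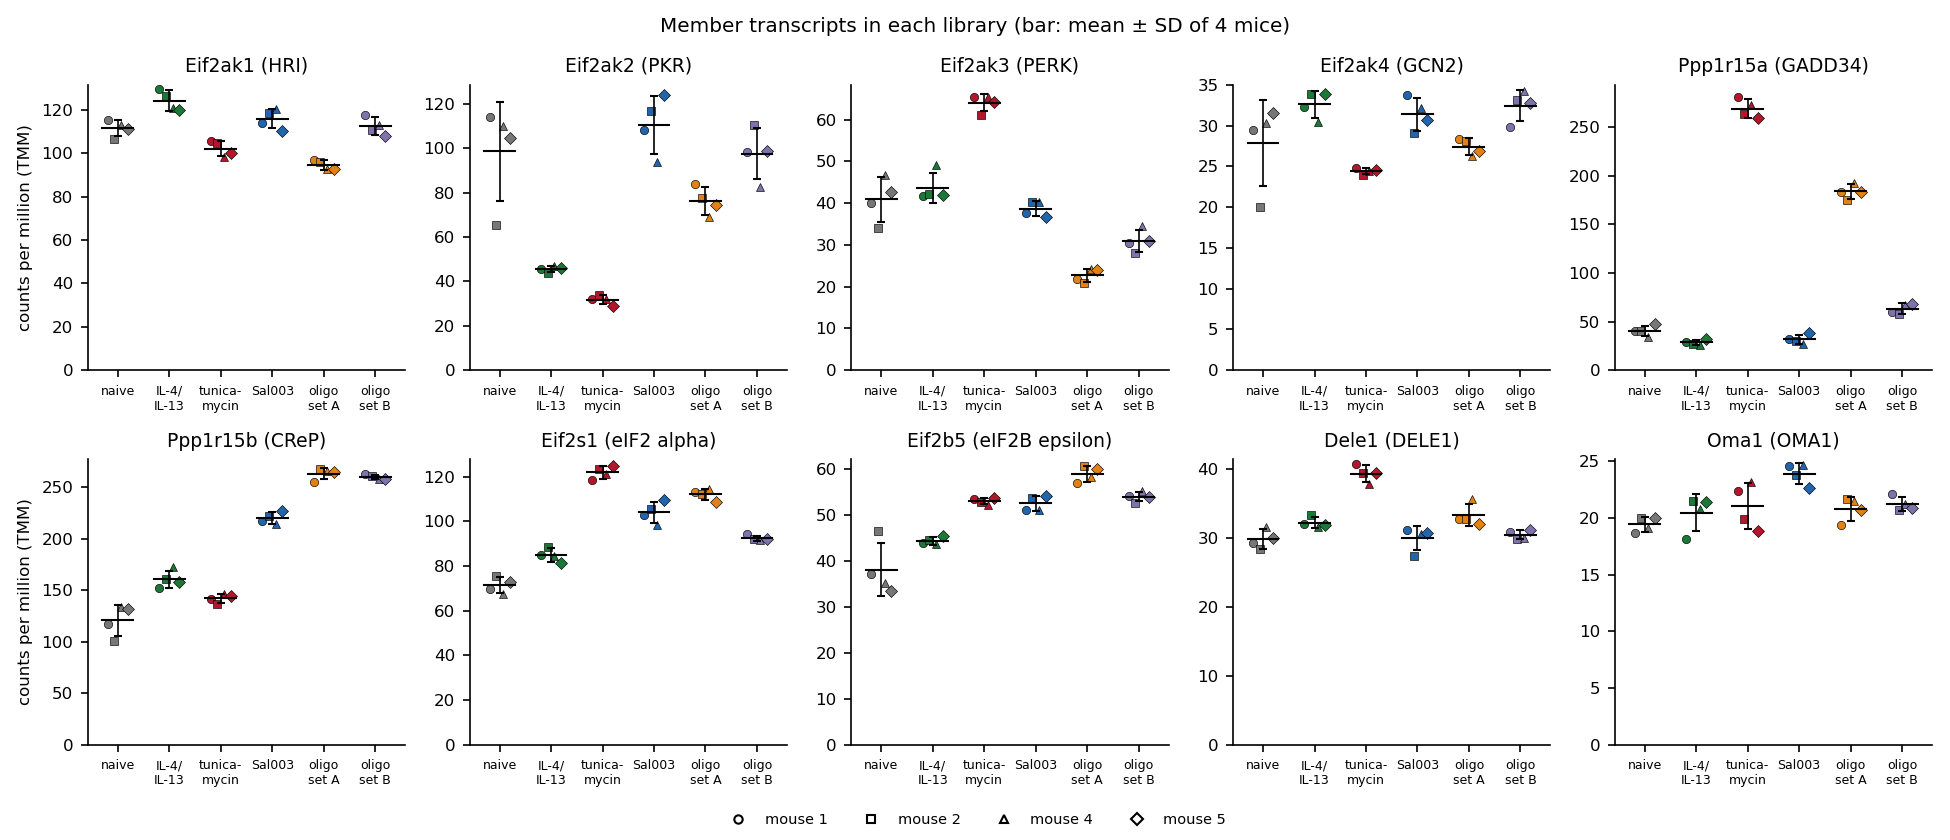
Normalised counts (CPM) of the 10 transcripts in 24 libraries, on linear axes from 0, with one symbol per mouse and a bar for the mean ± SD of 4 mice in each group. *Ppp1r15a* reaches 281.5 CPM with tunicamycin against at most 31.68 with IL-4/IL-13 alone, and the naive library of mouse 2 lies low for *Eif2ak2* at 65.67 and for *Eif2ak4* at 20.07.

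*Ppp1r15a* (ENSMUSG00000040435) encodes GADD34 and lies on chromosome 7 from 45172340 to 45175692 of GRCm39, on the minus strand, with 3 exons. Its start is shown because the gene moved furthest. The 250 bases before it, chr7:45175693-45175942, hold a full cAMP response element, TGACGTCA, which ATF and CREB factors bind, at -12, and an interferon-stimulated response element (ISRE) core, GAAA and GAAA with NN between them, at -220 (capitals mark both).
Ppp1r15a: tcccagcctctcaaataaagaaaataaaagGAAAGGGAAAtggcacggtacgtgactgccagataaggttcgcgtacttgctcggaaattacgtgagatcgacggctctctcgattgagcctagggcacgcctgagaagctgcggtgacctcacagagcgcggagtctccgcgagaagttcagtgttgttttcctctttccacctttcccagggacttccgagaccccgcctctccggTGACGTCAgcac

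These motifs were searched on both strands from 250 bases before to 50 bases after the start of 21593 genes. Of these windows, 2.45% held TGACGTCA and 3.83% the ISRE core, and these matches did not overlap in *Ppp1r15a*. The other motifs searched did not match in its window. They were CCAAT, the ER stress element, a site for ATF4 with C/EBP factors and a site for STAT6. A match is only a match of letters. The leader of the transcript holds 3 ATG triplets before the start codon, each with a stop codon in frame inside the leader. At least 1 upstream ATG, in any frame, was present in 62% of 20696 mouse leaders, and 2 or more in 40.1%. The leaders of *Ppp1r15b*, *Eif2ak3* and *Dele1* also hold 3, and in *Ppp1r15b* all 3 have a stop codon in frame inside the leader.

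*Ppp1r15a* was counted at 40.01, 40.2, 34.48 and 47.11 CPM in the naive libraries of mice 1, 2, 4 and 5, and at 28.96, 27.13, 26.17 and 31.68 CPM with IL-4/IL-13. The groups did not overlap, and the fall of 0.51 on the log2 scale (SE 0.09) had an adjusted p of 2.83e-05. With tunicamycin the 4 libraries stood at 281.5, 263.4, 273.1 and 259.4 CPM, and in set A at 183.6, 175.5, 193.2 and 183.7 CPM. These are rises over IL-4/IL-13 alone of 3.24 (SE 0.09, adjusted p = 1.41e-20) and 2.69 (SE 0.089, adjusted p = 1.98e-18) on the log2 scale, or 9.467-fold and 6.466-fold. Set B was lower, at 59.52, 57.91, 67.23 and 68.49 CPM, with a rise of 1.16 (SE 0.089, adjusted p = 5.42e-11). Sal003 gave 31.82, 29.66, 27.18 and 37.73 CPM, which overlaps both cytokine-only and naive cells, although its mean lay under that of naive cells (adjusted p = 0.00134). Its log2 difference from IL-4/IL-13 was 0.15 with a 95% interval of -0.036 to 0.343 (adjusted p = 0.173), with all 4 mice higher. GADD34 transcripts thus rose through the inhibitor groups in the order Sal003, set B, set A and tunicamycin, and each step was larger than the spread between mice. The step from set B to set A was 1.54 (SE 0.083, adjusted p = 3.67e-13).

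*Ppp1r15b* (ENSMUSG00000046062), which encodes CReP, moved differently. It rose with IL-4/IL-13, from 117, 100.7, 133.4 and 132.1 CPM in naive mice 1, 2, 4 and 5 to 152.4, 160.6, 172.3 and 158.5 CPM (log2 change 0.41, SE 0.06, adjusted p = 1.61e-06). It rose further with Sal003, to 217.1, 222, 214.6 and 227.4 CPM (0.45, SE 0.059, adjusted p = 5.81e-07). The oligomycin groups were highest and nearly coincided, with set A at 255.2 to 267.9 CPM and set B at 258.4 to 262.8 CPM. Their rises over IL-4/IL-13 were 0.71 (SE 0.059, adjusted p = 1.12e-10) and 0.69 (SE 0.059, adjusted p = 3.74e-10). The difference between the sets was 0.018 with an interval of -0.103 to 0.139 (adjusted p = 0.842). Tunicamycin alone lowered it, to 141.2, 136.9, 146.9 and 144.7 CPM, a small fall of 0.18 (SE 0.06, adjusted p = 0.00994) that lost its call without mouse 1 (adjusted p = 0.056). CReP transcripts fell with tunicamycin, where GADD34 transcripts rose most, and rose with Sal003, where no change of *Ppp1r15a* was detected.

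Per kilobase of merged exons, CReP was the most abundant of the 10 transcripts in IL-4/IL-13 cells (28.68 ± 1.484 CPM per kb, SD, n = 4), in Sal003 cells (39.25 ± 1.008) and in set B (46.36 ± 0.3831). GADD34 took that place with tunicamycin (91.71 ± 3.383) and in set A (62.65 ± 2.464). The same genes led when the longest or the canonical transcript set the length. With canonical transcripts, however, CReP and HRI hardly differed in IL-4/IL-13 cells (28.68 ± 1.484 and 28.63 ± 1.094 CPM per kb). In naive cells the leader depended on the length used. The log2 ratio of *Ppp1r15a* to *Ppp1r15b* per length was -1.567 ± 0.1775 (SD, n = 4) with IL-4/IL-13, 1.853 ± 0.06576 with tunicamycin, 0.4159 ± 0.06794 in set A, -1.109 ± 0.1328 in set B and -1.878 ± 0.1707 with Sal003. The ratio differed from that of IL-4/IL-13 in naive cells and with tunicamycin, set A and set B (exact two-sided permutation tests of 4 against 4, p = 0.0286 each, the smallest they allow, adjusted p = 0.0381 over 36 tests of ratios and shares). With the libraries paired by mouse, an exact sign-flip test of 4 pairs cannot go under p = 0.125, the value it gave for each of these. With Sal003 it did not pass (exact permutation p = 0.0571, adjusted p = 0.0709).

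**Figure D2:**
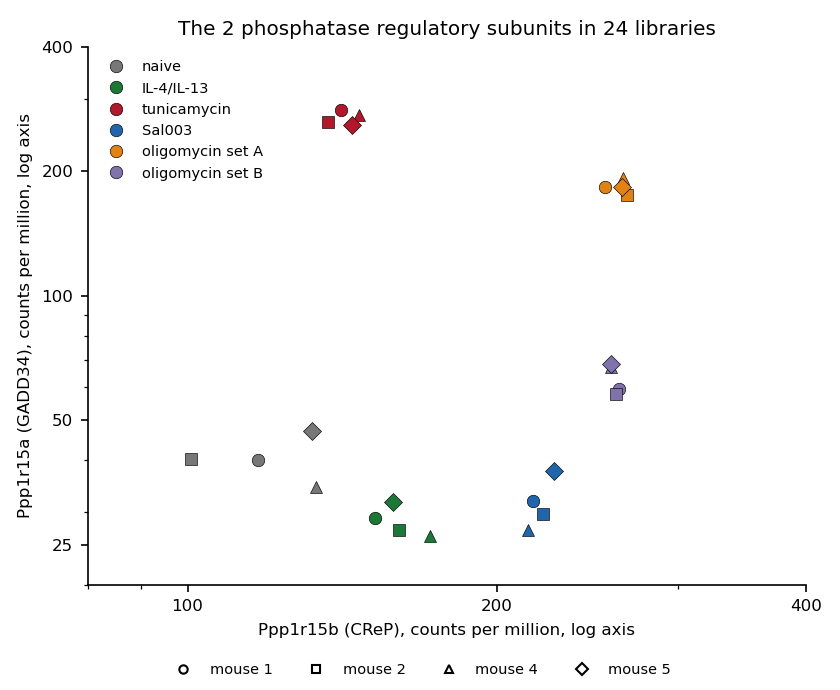
*Ppp1r15a* against *Ppp1r15b* in CPM in 24 libraries, on log axes, with colour for the group and symbol for the mouse. The groups form separate clouds, with tunicamycin high on *Ppp1r15a* at 259.4 to 281.5 CPM but at no more than 146.9 CPM of *Ppp1r15b*, and set A and set B apart in *Ppp1r15a* alone.

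*Eif2ak2* (ENSMUSG00000024079) encodes PKR, on chromosome 17 from 79159972 to 79190012, minus strand, with 16 exons. Its window holds an ISRE core that starts 30 bases after the transcription start, and no match of the other motifs searched. The bases 21 to 50 after the start, chr17:79189963-79189992, are shown with the match in capitals, since PKR is the kinase whose transcript varied most.
Eif2ak2: gtccgccggGAAAACGAAAcagaagagaac

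PKR transcripts were at 114.1, 65.67, 110.1 and 104.7 CPM in naive mice 1, 2, 4 and 5, so that the library of mouse 2 lay far under the other 3. With IL-4/IL-13 they were at 45.51, 43.83, 47.02 and 45.95 CPM. All 4 mice fell, by 1.12 on the log2 scale (SE 0.122, adjusted p = 1.77e-08), and by 1.25 without mouse 2. Within a bulk sample, fewer cells that hold a transcript and less of it per cell cannot be told apart. Tunicamycin lowered PKR further, to 31.84, 33.94, 32.16 and 28.89 CPM (a log2 change of -0.52, SE 0.128, adjusted p = 0.000702). The other inhibitors raised it. Sal003 gave 108.1, 116.8, 93.76 and 124.1 CPM, set B 98.52, 110.7, 82.5 and 98.84 CPM, and set A 83.9, 77.84, 69.08 and 74.6 CPM. The log2 rises over IL-4/IL-13 were 1.28 (SE 0.122, adjusted p = 2.99e-09), 1.10 (SE 0.122, adjusted p = 3.42e-08) and 0.75 (SE 0.122, adjusted p = 8.26e-06). PKR levels with Sal003 and in set B did not differ from naive cells beyond the spread between mice (adjusted p = 0.226 and 0.915), with log2 differences between -0.077 and 0.407 and between -0.258 and 0.227. Set A was lower than set B by 0.36 (SE 0.118, adjusted p = 0.0183), which lost its call without mouse 1 (adjusted p = 0.0515) or mouse 5 (0.0858).

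The genes whose log2 CPM was most like that of *Eif2ak2* over the 24 libraries were *Slfn5*, *Dtx3l* and *Samd9l* (Pearson's r of 0.98, 0.98 and 0.978 among 10597 genes, a description). Of 10 interferon-stimulated genes, 9 fell with IL-4/IL-13 (median log2 change -2.677, against -0.023 over all genes), where 30.4% of all genes tested fell. All 10 rose with Sal003 (median 3.192) and in both oligomycin groups (2.611 for set A, 3.135 for set B). The median over all genes was at most 0.006 in these comparisons. Sal003 raised 25.9% of all genes tested, while the share that rose was 34% for set A and 27.9% for set B. With tunicamycin 4 rose and 4 fell (median -0.056), against 38.7% and 37.6% of all genes tested. *Ifit1*, a sensor of foreign RNA, went from 121.1 CPM in naive cells to 4.232 with IL-4/IL-13, 108.2 with Sal003 and 18.55 with tunicamycin. PKR fell with tunicamycin while *Ifit1* rose 4.404-fold, so PKR and *Ifit1* did not move together there. The 10 genes summed to 361.6 to 382.1 CPM with tunicamycin, against 361.8 to 395.8 with IL-4/IL-13. In naive mouse 2 PKR was low, whereas the 10 genes summed to 2035 CPM, against 1683 to 2026 in the other naive libraries.

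**Figure D3:**
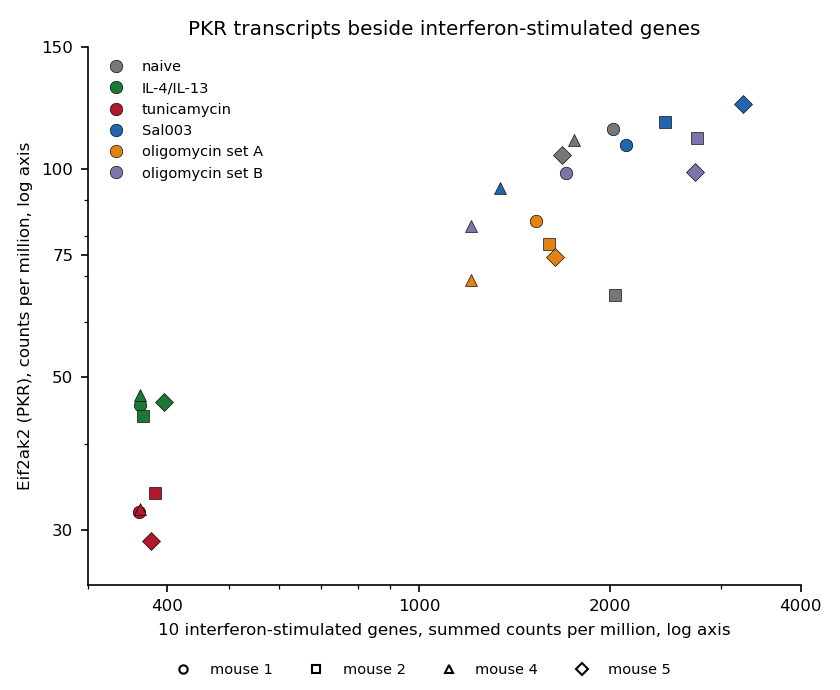
*Eif2ak2* in CPM against the summed CPM of 10 interferon-stimulated genes in 24 libraries, on log axes, with colour for the group and symbol for the mouse. IL-4/IL-13 and tunicamycin libraries lie together at sums of 361.6 to 395.8 CPM but apart in *Eif2ak2*, and naive mouse 2 lies at 65.67 CPM of *Eif2ak2* beside a sum of 2035.

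*Eif2ak3* (ENSMUSG00000031668) encodes PERK, on chromosome 6 from 70821461 to 70882235, plus strand, with 17 exons. The 250 bases before its canonical start, chr6:70821213-70821462, are shown because PERK was the kinase that tunicamycin raised. They hold 6 copies of CCAAT, the box bound by NF-Y, counting both strands (capitals), and a further copy lies 17 bases after the start. At least 1 copy was present in 39.9% of the 21593 windows, and 7 copies or more in 6 of them (0.0278%). This count was made after the sequence had been seen. None of the other motifs searched, among them the ER stress element, matched in the window of *Eif2ak3*.
Eif2ak3: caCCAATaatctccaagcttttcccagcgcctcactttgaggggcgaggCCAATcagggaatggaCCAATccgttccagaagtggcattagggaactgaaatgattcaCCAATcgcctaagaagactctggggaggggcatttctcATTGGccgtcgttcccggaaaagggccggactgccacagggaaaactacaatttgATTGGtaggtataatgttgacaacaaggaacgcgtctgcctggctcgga

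PERK transcripts did not pass the test for IL-4/IL-13, with 40.01, 34.11, 46.76 and 42.73 CPM in naive mice 1, 2, 4 and 5 and 41.72, 42.16, 49.12 and 41.94 CPM with the cytokines (log2 difference 0.10, interval -0.061 to 0.254, adjusted p = 0.287). With tunicamycin they rose to 65.52, 61.17, 65.51 and 64.3 CPM (0.55, SE 0.075, adjusted p = 3.41e-07). The oligomycin groups went the other way. Set A gave 21.92, 20.84, 24.14 and 23.88 CPM (-0.95, SE 0.079, adjusted p = 1.19e-10) and set B 30.44, 28.1, 34.55 and 30.82 CPM (-0.50, SE 0.078, adjusted p = 6.16e-06). Set A lay under set B in all 4 mice, by 0.45 (SE 0.081, adjusted p = 6.8e-05). Sal003 libraries stood at 37.69, 40.21, 40.25 and 36.7 CPM, with a difference of -0.18 that did not pass (SE 0.077, adjusted p = 0.0576) but did with the mouse as a replicate block (adjusted p = 0.0142) and in 4 other settings (0.0152 to 0.0309). The genes most like it were *Abcc4*, *Mtmr4* and *Scfd2* (r of 0.959, 0.955 and 0.946).

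*Eif2ak1* (ENSMUSG00000029613), which encodes HRI, has 15 exons on chromosome 5, from 143803530 to 143843661 on the plus strand. It was lower with every inhibitor. From 115.2, 106.5, 113.3 and 111.2 CPM in naive mice 1, 2, 4 and 5 it rose to 129.9, 126.5, 120.7 and 120 CPM with IL-4/IL-13 (log2 change 0.16, SE 0.041, adjusted p = 0.00204). It fell to 92.81 to 97.15 CPM in set A (-0.39, SE 0.041, adjusted p = 6.92e-09), 98.24 to 105.5 with tunicamycin (-0.28, SE 0.041, adjusted p = 1.04e-06), 108.2 to 117.7 in set B (-0.14, SE 0.041, adjusted p = 0.00466) and 110.5 to 120.5 with Sal003 (-0.10, SE 0.041, adjusted p = 0.0458). The Sal003 call did not hold without mouse 1, 2 or 5 (adjusted p = 0.193, 0.0783 and 0.121). Over 28.6% of its exon bases another gene, *Aimp2* or *Ankrd61*, lies on the opposite strand. Whether the counting used strand is not given in the sources used here, so its level is uncertain to that extent. In *Eif2s1* 31.1% of the exon bases lie opposite *Plek2* or *Atp6v1d*, and in the other 8 members 0.409% to 11.4% lie opposite another gene.

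*Eif2ak4* (ENSMUSG00000005102), which encodes GCN2, spans 118218950 to 118305868 of chromosome 2 in 39 exons and was the least abundant kinase per kilobase of merged exons in every group. Its naive libraries held 29.47, 20.07, 30.3 and 31.55 CPM for mice 1, 2, 4 and 5, and IL-4/IL-13 libraries 32.25, 33.89, 30.43 and 33.87 CPM. The log2 rise of 0.22 (SE 0.087, adjusted p = 0.03) rested on mouse 2, without which it was 0.08 (adjusted p = 0.248). Tunicamycin lowered it to 23.94 to 24.75 CPM, under every IL-4/IL-13 library (-0.42, SE 0.088, adjusted p = 0.000154). Set A lowered it to 26.24 to 28.36 CPM (-0.25, SE 0.087, adjusted p = 0.0146). No change was detected with Sal003 (-0.053, interval -0.233 to 0.127) or in set B (-0.005, interval -0.184 to 0.173).

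As a share of the summed level of the 4 kinases per kilobase of merged exons, PKR fell from 47.83% ± 4.605 (SD, n = 4) in naive cells to 28.12% ± 0.6928 with IL-4/IL-13 and 21.02% ± 1.152 with tunicamycin. It stood at 50.66% ± 3.774 for Sal003, 48.59% ± 1.901 for set A and 49.48% ± 3.794 for set B. PERK went from 23.09% ± 1.587 with IL-4/IL-13 to 36.43% ± 1.348 with tunicamycin and to 12.42% ± 1.287 in set A. HRI held the largest share with IL-4/IL-13, 41.46% ± 1.653, and with tunicamycin its share, 36.65% ± 0.8911, was close to that of PERK. Each of these shares differed between IL-4/IL-13 and the group named with it (exact permutation p = 0.0286, adjusted p = 0.0381, and p = 0.125 paired by mouse, the smallest possible). The size of a share depends on the length used, since with canonical transcripts HRI held 52.2% and PKR 19.13% with IL-4/IL-13, and the directions named here were the same. The rank of the kinases also depends on it. With canonical transcripts HRI held the largest mean share in every group, with 40.17% for Sal003, 44.07% for set A and 42.33% for set B. PKR held 38.2%, 35.46% and 36.6% in these groups. Shares of a sum are linked, so the fall of 1 kinase raises the others.

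**Figure D4:**
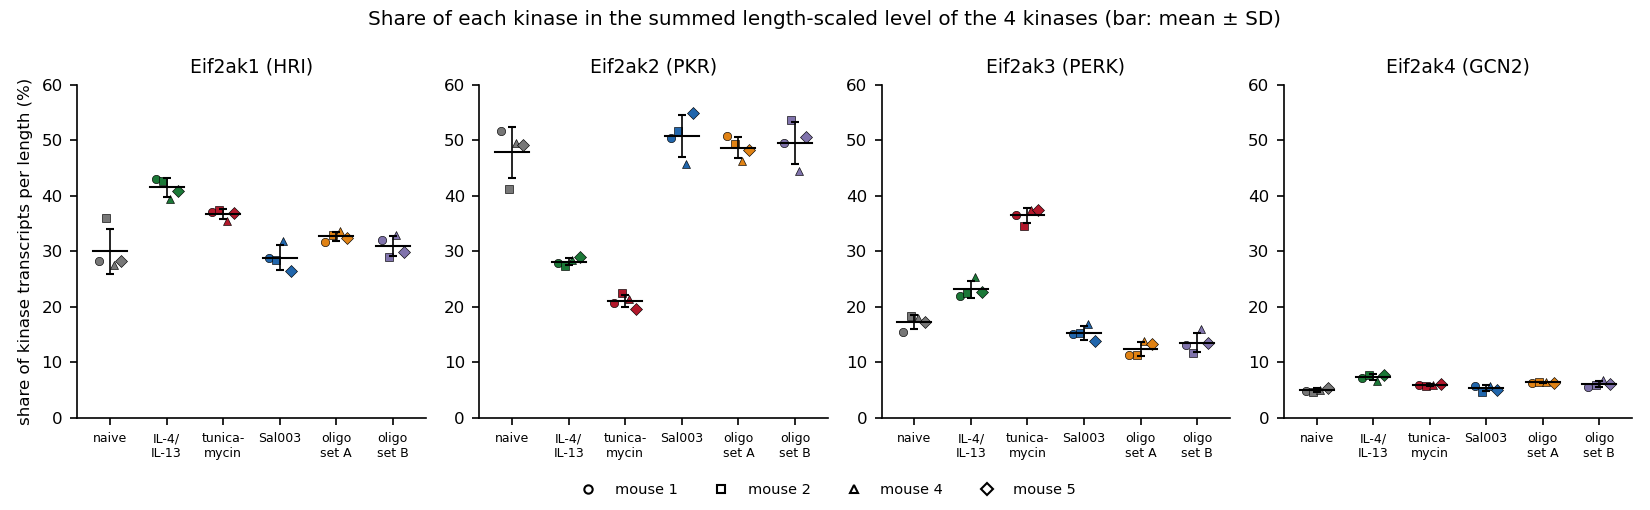
Percent share of each kinase in the summed CPM per kilobase of merged exons of the 4 kinases, by group, with one symbol per mouse and a bar for the mean ± SD. PKR falls from 47.83% to 28.12% with IL-4/IL-13 and lies between 44.4% and 54.8% in every Sal003 and oligomycin library, and PERK is highest with tunicamycin, at 36.43%.

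*Oma1* (ENSMUSG00000035069, chromosome 4, 103170737 to 103229065) and *Dele1* (ENSMUSG00000024442) carry mitochondrial stress to HRI. No change of either was detected with oligomycin. *Oma1* stood at 18.1 to 21.53 CPM with IL-4/IL-13, at 19.36 to 21.64 in set A (log2 difference 0.022, interval -0.111 to 0.156) and at 20.66 to 22.1 in set B (0.051, interval -0.083 to 0.184). Among the inhibitors only Sal003 raised it, to 24.6, 23.74, 24.63 and 22.65 CPM in mice 1, 2, 4 and 5, above every IL-4/IL-13 library (0.22, SE 0.064, adjusted p = 0.00536), a call that was lost without mouse 1 (adjusted p = 0.108). *Dele1* rose with tunicamycin, from 32.03, 33.44, 31.64 and 31.93 CPM with IL-4/IL-13 to 40.82, 39.46, 37.83 and 39.48 CPM (0.29, SE 0.047, adjusted p = 5.32e-06). It was at 32.13 to 35.67 CPM in set A (0.047, interval -0.051 to 0.145) and 29.86 to 31.21 in set B (-0.08, interval -0.179 to 0.018), where all 4 mice were lower and the difference passed with upper-quartile normalization (adjusted p = 0.0228). With Sal003 it was at 27.46 to 31.25 CPM, also lower in all 4 mice (-0.10, SE 0.048, adjusted p = 0.0794), and passed with that normalization (0.0153), with at least 10 counts in every library (0.0271) and in a fit of only the groups compared (0.0494). Its rise with IL-4/IL-13 over naive cells, 0.11 (SE 0.048), was at the threshold (adjusted p = 0.0498) and was lost with the replicate block (adjusted p = 0.0557) and without mouse 1, 2 or 5 (0.114, 0.228 and 0.0808). *Dele1* was higher in set A than in set B by 0.13 (SE 0.047, adjusted p = 0.0332), and this call was lost without mouse 1, 4 or 5 (0.0675, 0.23 and 0.0528).

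*Eif2s1* (ENSMUSG00000021116, chromosome 12, 78907681 to 78935018, 8 exons) encodes the subunit on which the kinases and the phosphatase act. The coding stretch around the phosphorylated serine, codon 51 when the start codon is not counted, is shown with that codon in capitals.
Eif2s1: cttagtgaattaTCCagacgacgtatc

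Its transcript rose with IL-4/IL-13 and further with each inhibitor. It stood at 69.59, 75.39, 67.62 and 73 CPM in naive mice 1, 2, 4 and 5 and at 84.89, 88.61, 84.67 and 81.15 CPM with IL-4/IL-13 (log2 change 0.25, SE 0.041, adjusted p = 1.13e-05). Over IL-4/IL-13, it rose to 118.3 to 124.9 CPM with tunicamycin (0.52, SE 0.041, adjusted p = 1.59e-11), 108.6 to 114.5 in set A (0.40, SE 0.041, adjusted p = 3.81e-09), 98.46 to 109.5 with Sal003 (0.30, SE 0.041, adjusted p = 1.36e-06) and 91.83 to 94.13 in set B (0.12, SE 0.041, adjusted p = 0.0128). The set B call was lost without mouse 1 (adjusted p = 0.142) or mouse 5 (0.146) and with upper-quartile normalization (0.16). Each of the 5 steps in the order naive, IL-4/IL-13, set B, Sal003, set A and tunicamycin passed the test, although Sal003 and set A overlapped and 1 of 4 mice was lower in set A (adjusted p = 0.03).

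*Eif2b5* (ENSMUSG00000003235, chromosome 16, 20317240 to 20330928, 16 exons), which encodes the subunit with the exchange activity of eIF2B, followed a similar course. It was at 37.28, 46.56, 35.29 and 33.54 CPM in naive mice 1, 2, 4 and 5, where mouse 2 lay above every IL-4/IL-13 library. It stood at 44.06, 44.58, 43.65 and 45.58 CPM with IL-4/IL-13 (0.22, SE 0.063, adjusted p = 0.00398; lost without mouse 5, adjusted p = 0.0758). It rose over IL-4/IL-13 to 57 to 60.81 CPM in set A (0.41, SE 0.062, adjusted p = 2.62e-06), 52.78 to 55.24 in set B (0.28, SE 0.062, adjusted p = 0.000455), 52.3 to 53.85 with tunicamycin (0.26, SE 0.062, adjusted p = 0.000648) and 51.18 to 54.31 with Sal003 (0.24, SE 0.063, adjusted p = 0.0021). Among the 4 inhibitor groups no neighbours in this order passed the test. Set A did not overlap set B and was higher in all 4 mice (adjusted p = 0.0996), and it exceeded tunicamycin (adjusted p = 0.034) and Sal003 (0.0266). The log2 ratio of *Eif2b5* to *Eif2s1* per length went from -1.157 ± 0.06885 (SD, n = 4) with IL-4/IL-13 to -1.423 ± 0.03551 with tunicamycin. It was higher than with IL-4/IL-13 in set B, by 0.1561 and in all 4 mice, and set B also exceeded set A. Each of these differences had an exact permutation p of 0.0286 (adjusted p = 0.0381). Paired by mouse, the exact sign-flip test gave p = 0.125 for each, the smallest it allows.

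**Figure D5:**
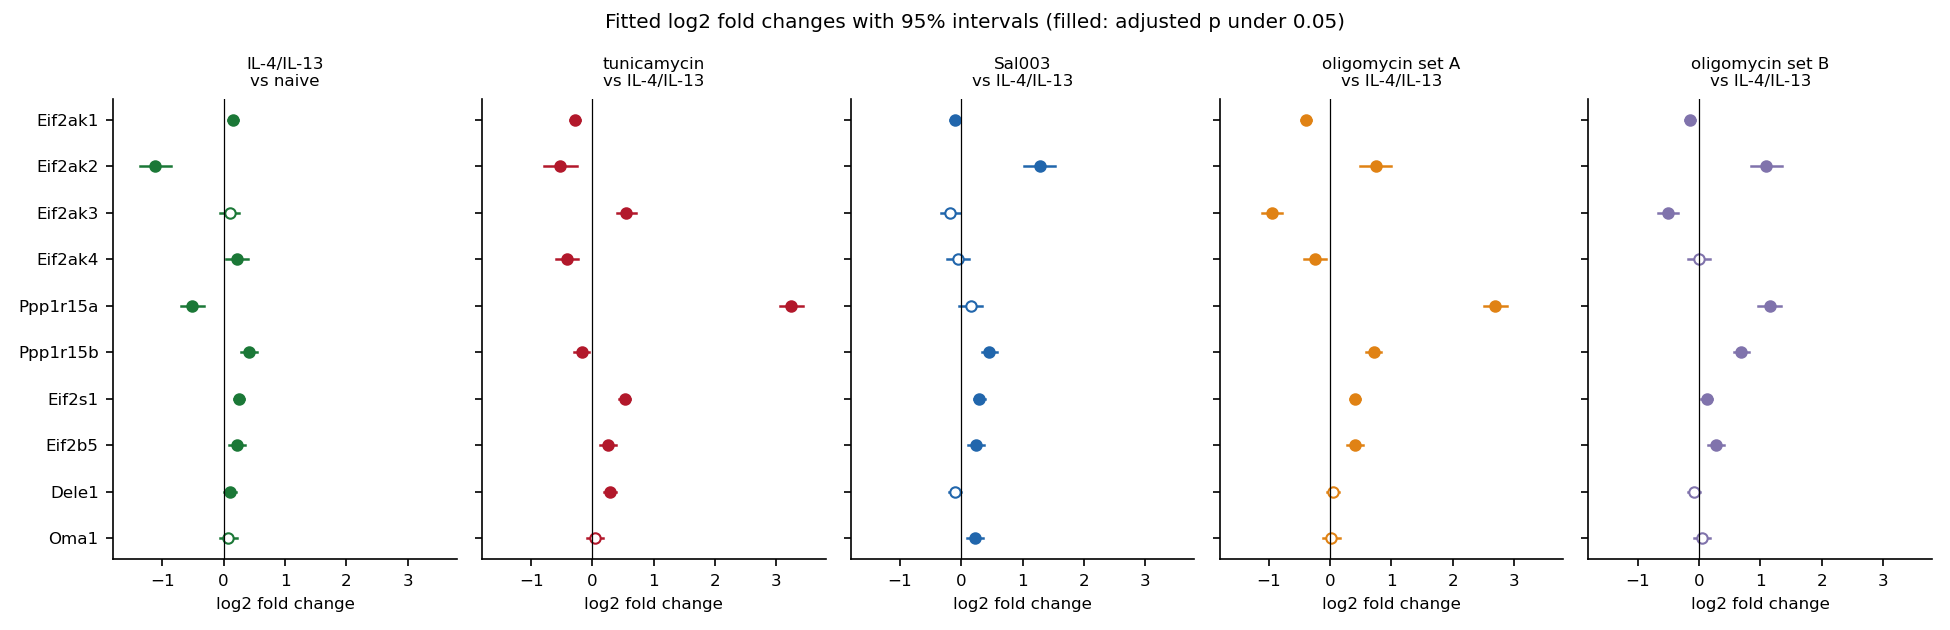
Fitted log2 fold changes of the 10 transcripts in 5 comparisons, as points with 95% intervals, filled where the adjusted p is under 0.05. *Ppp1r15a* lies at 3.24 with tunicamycin and 2.69 in set A, *Eif2s1* and *Eif2b5* lie above 0 in all 5 panels, and *Eif2ak3* lies at 0.55 with tunicamycin but at -0.95 in set A.

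Of the 6 other subunits of eIF2 and eIF2B, 5 rose and 1 fell with tunicamycin (median log2 change 0.289, against 0.007 over all genes), 4 rose in set A (median 0.293), and 3 rose with Sal003 (0.181). In set B 3 rose and 1 fell (0.124). *Eif2b3*, the γ subunit of eIF2B, went from 5.51 CPM with IL-4/IL-13 to 20.97 with tunicamycin and 14.8 in set A, 3.806-fold and 2.686-fold. *Eif2s2*, eIF2β, rose from 63.55 to 177.2 CPM with tunicamycin, 2.789-fold, while set A reached 154.8 CPM and set B 132.8. The subunits thus did not change evenly. Of all genes tested, 38.7% rose and 37.6% fell with tunicamycin, and 34% and 32.2% in set A. With Sal003 these shares were 25.9% and 24.6%, and in set B 27.9% and 26.4%. More of the 6 subunits rose than fell in each group, but so short a list was not tested against these shares.

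The 3 PP1 catalytic subunits, the partners of GADD34 and CReP, all passed the test with tunicamycin, in different directions. Of all genes tested, 76.3% passed there. With tunicamycin *Ppp1cb* rose from 199.7 to 295.9 CPM while *Ppp1ca* fell from 423.9 to 325.8 and *Ppp1cc* from 23.35 to 16.54 CPM (median of the 3, -0.38). None of the 3 passed the test with Sal003 or in set B, where 50.6% and 54.3% of all genes did.

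Among 7 regulators of the kinases, 3 rose and 2 fell with tunicamycin (median 0.052), where 38.7% of all genes tested rose and 37.6% fell. *Hspa5*, the ER chaperone BiP that restrains PERK, rose from 1073 to 12370 CPM, and *Dnajc3*, an ER co-chaperone known to inhibit PERK and PKR, from 159.5 to 998.4 CPM. *Dnajc3* fell to 101.6 CPM in set A, where PERK fell too, and *Hspa5* stood at 996.9 CPM there. The mean of *Dnajc3* was 107.6 CPM in set B, where PERK also fell, and 128.1 CPM with Sal003, where PERK did not pass the test. *Impact*, an inhibitor of GCN2 activation, rose from 75.74 to 154.1 CPM with tunicamycin and to 135.1 CPM in set A, and *Eif2ak4* fell in both. The mean of *Impact* was also higher in set B (110.6 CPM) and with Sal003 (99.59 CPM), where no change of *Eif2ak4* was detected. Of 8 mitochondrial partners of OMA1 and DELE1, 5 rose and 2 fell with tunicamycin (median 0.372) and 5 rose and 1 fell in set A (0.287). In set A 34% of all genes tested rose and 32.2% fell. The counts of these lists were not tested against such shares. The protease *Lonp1* rose from 62.56 CPM to 222.2 with tunicamycin, 220.9 in set A and 116.7 in set B. Of 8 other initiation factors, 6 rose and 1 fell with tunicamycin (0.265), led by *Denr*, a factor of reinitiation, 4.081-fold, and *Eif5*, the GTPase activator of eIF2, 2.73-fold.

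All 4 ISR readouts, *Atf4*, *Ddit3*, *Trib3* and *Asns*, rose with each inhibitor. Of all genes tested, 38.7% rose with tunicamycin, 34% in set A, 27.9% in set B and 25.9% with Sal003. The median log2 change was 4.362 with tunicamycin, 3.555 in set A, 3.044 in set B and 1.589 with Sal003. The 3 genes most like *Ppp1r15a* over the 24 libraries were *Siah1a*, *Sqstm1* and *Gadd45a* (r of 0.989, 0.988 and 0.987). *Ddit3* shares its symbol with a second, overlapping gene model, and its counts are uncertain.

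Between the oligomycin groups, 3 members were higher in set A (*Ppp1r15a*, *Eif2s1* and *Dele1*) and 4 were lower (*Eif2ak1*, *Eif2ak2*, *Eif2ak3* and *Eif2ak4*), where 41.2% of all genes tested were called, 19.9% higher and 21.3% lower. All 4 kinase transcripts were thus lower in set A. For HRI the difference was -0.25 (SE 0.041, adjusted p = 2.47e-05), with 0 of 4 mice higher, and for GCN2 -0.24 (SE 0.087, adjusted p = 0.0266), which lost its call without mouse 4 (adjusted p = 0.174) or mouse 5 (0.108). Since the labels conflict on ISRIB, the sign of its effect cannot be read from this comparison.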

How the data were processed

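RNA was sequenced from 24 libraries as single reads of 150 bases. Per the labels and the study's methods, the authors used Cutadapt 1.8 for adapters, dropped reads of ribosomal origin or low complexity, mapped to GRCm39 with STAR 2.7, and obtained gene counts with HTSeq 0.9.1. The strand setting is not given in the sources used here. The deposited values used are these raw counts. Rows that name no gene (5, with 12.74% to 15.231% of reads) were left out. A TPM table was not used, because its 28 header names stand over 25 cells. No molecular identifiers are described, so precision rests on read depth and on 4 mice per group.

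Counts were fitted with edgeR 4.0.16 in R 4.3.3 (TMM, filterByExpr, quasi-likelihood test, 1 coefficient per group over all libraries, with no mouse block, since the study's methods describe none in their test). SEs and 95% intervals come from that fit. The median biological coefficient of variation was 7.06%. The fit was also run on simulated counts, in which fewer genes changed than were called here and by more than most members did. That run does not bear on small changes. Ratios and shares used counts per kilobase and exact permutation tests. Libraries with 1 number share a mouse by the labels, and deviations from group means within a mouse had a median correlation of 0.24 (56 of 60 pairs above 0.1) against -0.05 between mice. Replicates differed by more than sampling noise (chi-square per gene 2.19 to 35.9). Genes were located in GENCODE annotation of GRCm39, which holds 56323 of the identifiers; shared exon bases came from it, and a search with BLAST 2.17.0 found transcript sequence shared with other loci on the same strand for *Ppp1r15b* only (1.19%).

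All members are named in every comparison. Listed genes named first are those called with at least 2.5-fold; genes most like a member have the highest correlation of log2 CPM (prior count 2) among genes with a mean of at least 50 counts. A further promoter sequence is not reported here. Members and lists were chosen with earlier results of these data known. Alternatives were DESeq2 1.42.0, upper-quartile normalization, other filters (none, or at least 10 counts in every library), only the groups compared, a replicate block, leaving out each mouse, a 2-fold threshold, the longest transcript as length and, added after seeing the data, the canonical transcript.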

Additional observations from a re-analysis of the deposited data

Results flagged for a closer look

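In 7 of 96 groups of 4 libraries, 1 library lay far from the other 3 by Dixon's ratio of gap to range; chance flags about 1 in 20 groups. In 3 of them it was the naive library of mouse 2, with *Eif2ak2* at 65.67 CPM, *Eif2ak4* at 20.07 CPM and an *Eif2ak1* share of kinase transcripts of 36.04%. The others were *Eif2ak3* with IL-4/IL-13 in mouse 4 (49.12 CPM), *Eif2s1* in oligomycin set B in mouse 1 (94.13 CPM), *Dele1* with Sal003 in mouse 2 (27.46 CPM) and the log2 ratio of *Eif2b5* to *Eif2s1* with tunicamycin in mouse 1 (-1.37).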

How the results depend on the processing

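Of 126 recomputed counts of members called, 120 stayed within 1.5 times the reported count. With only the groups compared in the fit, 5 members were called with IL-4/IL-13. At a 2-fold threshold, 1 member passed with IL-4/IL-13, 1 with Sal003 and 2 in set B. Without 1 mouse, the count at 2.5-fold with Sal003 ran from 0 to 1 (1 without mouse 4, which is *Eif2ak2*). The count called between the oligomycin sets with no fold threshold ran from 4 (without mouse 5) to 7. With the mouse as a replicate block, 7 members were called with IL-4/IL-13, where *Dele1* was lost (adjusted p = 0.0557), and 7 with Sal003, where *Eif2ak3* was gained (0.0142); the block changed no other call of a member. Of 600 recomputed fold changes of members, 34 lost and 11 gained a call and 12 changed sign, all of them close to 0. These were *Oma1* with tunicamycin (-0.012 with upper-quartile normalization, -0.007 with at least 10 counts per library and -0.015 to 0.138 without 1 mouse), in set A (-0.005 with at least 10 counts, -0.007 with DESeq2, -0.007 to 0.039 without 1 mouse), in set B (-0.038 to 0.089 without 1 mouse) and between the sets (0.01 upper-quartile, -0.06 to 0.031 without 1 mouse), and *Eif2ak4* with Sal003 (-0.107 to 0.002 without 1 mouse) and in set B (-0.061 to 0.013). Without 1 mouse, the difference in PKR share between the sets ran from -1.793 to 0.2044 percentage points, and that in the log2 ratio of *Eif2b5* to *Eif2s1* from -0.1197 to 0.0755 (IL-4/IL-13 against naive) and from -0.02721 to 0.02187 (set A against IL-4/IL-13), with the changed sign in each case without mouse 2. The GCN2 share in set A lost its call with canonical transcripts. The cause of these changes was not tested. With 4 mice a group, exact permutation p-values cannot go under 0.0286.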
